A study of Mus musculus with 9 samples.

Results

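Tumour cells of the mouse melanoma line B16 that had met interferon gamma, together with a B16-derived strain that resists immune checkpoint blockade, were compared with untreated B16 cells by open chromatin. The comparison set 6 libraries against 3, which is all 9 libraries of the series. The untreated group (B16_untreated, 3 libraries) held cells of strain B16 with no treatment. The exposed group (B16_IFNg, 3 libraries) held strain B16 given interferon gamma (IFNy in the labels) for 2 weeks in replicates 1 and 2 and for 3 weeks in replicate 3, in each case before the cells were put into mice. The resistant group (Res499, 3 libraries) held strain 499, derived from B16 and labelled as untreated. The cells of all 9 libraries grew as tumours in mice, were collected on day 15 and were sorted as melanoma cells. The labels do not say how many mice a library came from, whether strain 499 is 1 clone, or whether replicates came from separate tumours, so every p-value reflects the variation among these 9 libraries, which may be technical. Joining B16_IFNg and Res499 into 1 side asks which sites the exposed and the resistant cells shared. What interferon did and what the strain brought cannot be told apart within that side.

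ATAC-seq uses a transposase that cuts and tags DNA where chromatin is accessible, so that reads pile up at active promoters and enhancers. Interferon gamma binds the receptor encoded by Ifngr1 and Ifngr2, the kinases JAK1 and JAK2 pass the signal on, and genes with GAS sites, such as Irf1, are switched on. Other targets cut, load and display peptides on MHC class I (Psmb9, Tap1, B2m), and Cd274, which encodes an inhibitory ligand of T cells, is a target too.

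The deposited lists held between 9214 and 25362 peaks on chromosomes 1 to 19, X and Y. To compare like with like, the 9214 peaks with the smallest peak-caller p were kept in each library, and overlapping peaks were merged into 15664 regions with a median width of 676 bp. Within a library the most significant peak has rank 1, and a region with no peak among those kept has rank 9215. The rank difference of a region is the mean rank in B16_untreated minus the mean rank in the other 6 libraries, so a positive value means nearer the top in the exposed and resistant cells. A rank orders sites within a library and is no measure of how far chromatin opened. Of the 15664 regions, 4481 had a peak in all 9 lists. The relative depth ranged from 7.59 to 11.1 fragments per kb of the effective genome and overlapped between the sides.

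Few regions reached the smallest p that 84 choices of 3 libraries allow (two-sided exact permutation test, p = 0.0119). There, 64 regions ranked higher in the 6 libraries (0.409% of all regions) and 103 ranked lower (0.658%), together 1.07%. If the sides did not differ, a share of up to 0.0119 would be due on average, and 1.07% lies below it. At an unadjusted exact p under 0.05 there were 210 higher (1.34%) and 296 lower (1.89%), which the ties hold down in the same way. After Benjamini-Hochberg adjustment over all regions 0 passed, and the smallest adjusted p of this exact permutation test was 1. Ranks of the sides did not overlap at 101 regions in the higher direction (0.645%) and at 170 in the lower (1.09%). The balance of directions moved with the scale of the rank. Higher regions made up 38.3% of the calls on the rank, 17.4% on the log2 rank, 6.90% where a peak had to cover 50% of the region, and 70.2% among the 4481 regions with a peak in all 9 lists. In that last set, 40 regions ranked higher (0.893%) and 17 lower (0.379%).

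**Figure D1:**
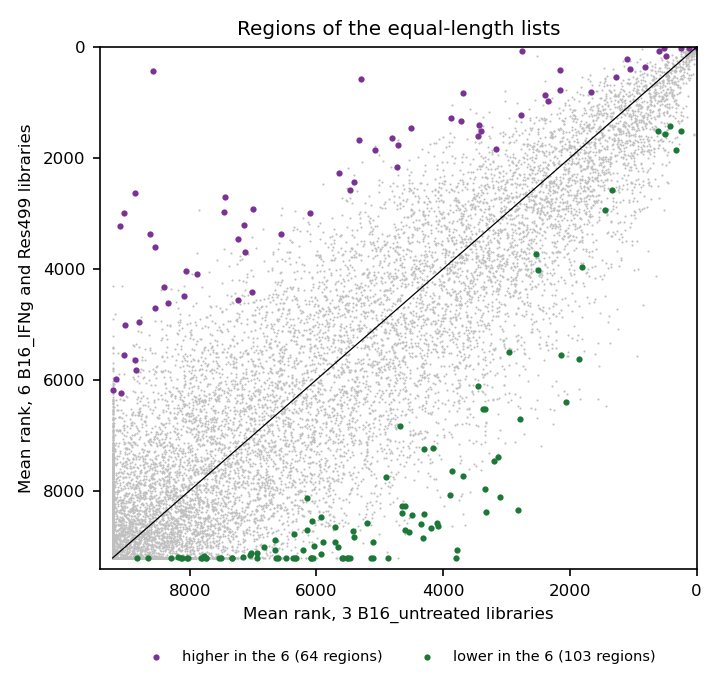
Each point is 1 of the 15664 regions, with its mean rank in the 3 B16_untreated libraries on the x axis and its mean rank in the 6 B16_IFNg and Res499 libraries on the y axis, both reversed so that the most significant sites lie at the top right. The 64 regions higher in the 6 lie above the diagonal line of equal rank and the 103 lower ones below it, many of them along the bottom edge where the 6 libraries had no peak among the 9214 kept.

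Promoter sequences are given for the start of Tap1, the antigen presentation gene that ranked higher, for Mylip and Crlf3, the gene starts next in the limma fit over regions with a peak in all 9 lists, for Pfkp, which ranked lower, and for Me3, whose start alone had a peak in all 6 libraries and in no untreated one of the full lists. Each runs 5′ to 3′ on the strand of its gene from 250 bases before to 50 after the annotated start, is taken from RefSeq on GRCm38.p6, and has in capitals every match to the motifs listed after them.
Tap1: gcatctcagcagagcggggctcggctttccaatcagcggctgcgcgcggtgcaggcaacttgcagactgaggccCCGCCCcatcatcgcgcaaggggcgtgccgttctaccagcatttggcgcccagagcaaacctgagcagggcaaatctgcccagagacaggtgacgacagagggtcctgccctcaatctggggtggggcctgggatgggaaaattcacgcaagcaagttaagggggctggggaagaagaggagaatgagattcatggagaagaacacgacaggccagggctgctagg
Mylip: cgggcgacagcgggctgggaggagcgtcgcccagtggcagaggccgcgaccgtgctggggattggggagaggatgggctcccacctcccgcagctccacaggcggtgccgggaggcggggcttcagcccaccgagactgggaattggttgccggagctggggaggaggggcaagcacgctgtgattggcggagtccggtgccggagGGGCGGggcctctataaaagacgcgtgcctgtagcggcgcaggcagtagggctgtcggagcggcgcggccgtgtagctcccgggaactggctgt
Crlf3: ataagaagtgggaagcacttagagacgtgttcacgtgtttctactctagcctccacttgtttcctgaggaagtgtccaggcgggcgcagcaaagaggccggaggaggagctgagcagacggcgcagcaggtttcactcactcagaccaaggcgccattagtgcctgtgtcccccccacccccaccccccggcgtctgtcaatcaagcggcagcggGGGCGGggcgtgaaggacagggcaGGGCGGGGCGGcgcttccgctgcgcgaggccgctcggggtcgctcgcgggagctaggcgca
Pfkp: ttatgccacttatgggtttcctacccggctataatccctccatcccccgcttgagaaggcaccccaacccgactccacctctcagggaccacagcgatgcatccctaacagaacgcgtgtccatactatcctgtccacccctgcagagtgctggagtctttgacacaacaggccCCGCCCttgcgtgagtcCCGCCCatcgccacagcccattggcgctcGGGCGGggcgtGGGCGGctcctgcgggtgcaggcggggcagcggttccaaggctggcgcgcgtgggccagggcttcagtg
Me3: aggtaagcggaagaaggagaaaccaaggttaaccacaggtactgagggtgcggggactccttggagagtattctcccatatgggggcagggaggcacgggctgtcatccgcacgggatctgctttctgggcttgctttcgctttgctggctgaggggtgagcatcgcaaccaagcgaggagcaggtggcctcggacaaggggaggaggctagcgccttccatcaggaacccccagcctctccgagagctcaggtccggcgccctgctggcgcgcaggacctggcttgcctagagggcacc
The windows are chr17:34187306-34187605 on the plus strand for Tap1, chr13:45389492-45389791 on the plus strand for Mylip, chr11:80080942-80081241 on the minus strand for Crlf3, chr13:6648722-6649021 on the minus strand for Pfkp and chr7:89632568-89632867 on the plus strand for Me3. The only matches in these windows were to GGGCGG, the GC box bound by SP factors. Tap1 and Mylip held 1 match each, Crlf3 3, of which 2 share a base, Pfkp 4 and Me3 none.

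In all, 10 motifs were searched on both strands in 21238 RefSeq promoter windows of this length. The share of all windows with a match was 8.13% for an ISRE-like GAAANNGAA, 7.69% for the GAS letters TTCNNNGAA, 1.08% for the NF-kB letters GGGANTTTC and 6.99% for the AP-1 letters TGANTCA. It was 2.24% for the CRE TGACGTCA, 2.99% for the M-box TCATGTG bound by MITF, 13.6% for the TEAD letters GGAATG and 11.6% for the ETS letters CCGGAAG. The GC box GGGCGG was in 46.2% and the NRF1 letters GCGCATGCG in 2.35%. Of the 9141 windows under a region, 58 lay under 41 regions that ranked higher and 44 under 36 regions that ranked lower. Several windows can lie under the same region and overlap, so windows are not separate sites. ISRE-like letters were in 2 of the 58 windows (Cul1 and Zmynd19) and 1 of the 44 (Tdp1), against 6.08% of windows under any region, and GAS letters in 1 and 1 (Wipi1 and Vrk1), against 6.38%. NRF1 letters were in 6 of the 58 windows (10.3%), at Dock3, Exosc5, Zfp800, Cmc2 and the overlapping windows of Sh3yl1 and Acp1, and in 1 of the 44 (2.27%), at Tdp1, against 4.78% under any region. GGGCGG was in 74.1% of the higher and 56.8% of the lower windows, against 71.9%. These windows are richer in G and C than the whole set, with medians of 65.8% in the higher, 60.2% in the lower, 62.7% under any region and 56.3% in all windows. A match is a description of letters and was not tested as a binding site.

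Among the pathway's own genes, 1 region reached the smallest unadjusted p, at the antigen presentation gene Tap1. The region at the start of Tap1, which pumps peptides into the endoplasmic reticulum for MHC class I, also covers the divergent start of Psmb9, a subunit of the immunoproteasome (chr17:34187124-34188038). Its ranks were 8042 and 8398 in B16_untreated replicates 2 and 3, with no peak among those kept in replicate 1. They were 6682, 4136 and 2785 in B16_IFNg, with Res499 at 3677, 1731 and 2636. All 6 libraries lay above every untreated one, with a rank difference of 4944 (two-sided exact permutation p = 0.0119). The full lists held a Tap1 peak in all 3 untreated libraries, at rank 10592 in replicate 1. The authors' fold enrichment at this site was 4.91, 9.08 and 7.12 in untreated replicates 1, 2 and 3 and 6.37 to 7.52 in the other 6, which overlap. On the log2 rank the exact permutation p for Tap1 was 0.0238, in lists of 4607 peaks it was 0.0833, and where a peak had to cover 50% of the region the difference was 2850 (exact permutation p = 0.190).

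Of the other 14 regions of antigen presentation genes, none reached the smallest p, which is near the background of 0.409% higher and 0.658% lower over all regions. The start of B2m, the light chain of MHC class I (chr2:122147100-122148204), ranked 1325, 4876 and 1253 in B16_untreated and 1480, 7285 and 4842 in B16_IFNg, with Res499 at 5891, 2757 and 2482. The sides overlapped (rank difference -1638, exact permutation p = 0.298). The start of H2-K1, a heavy chain of MHC class I (chr17:34000043-34000574), had no peak in any untreated list of 9214 and ranked 6845 and 6753 in B16_IFNg replicates 1 and 3 and 7982 in Res499 replicate 1 (exact permutation p = 0.321). In the full lists it had a peak in 2 untreated and 4 other libraries. The region at Psme2, part of the proteasome activator, had a rank difference of -2027 (exact permutation p = 0.119).

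Interferon receptor and JAK-STAT genes held 30 regions at 19 of 20 genes, and 0 reached the smallest p in either direction. Over all regions 0.409% did so higher and 0.658% lower, so a count of 0 among 30 is near the background. Ifngr1 (chr10:19591449-19592312) ranked 2020, 5215 and 1997 in B16_untreated and 1372, 5529 and 1040 in B16_IFNg, with Res499 at 3176 and 2663 in replicates 1 and 3 with none kept in replicate 2 (exact permutation p = 0.75). Irf1, a transcription factor induced early by interferon (chr11:53769741-53770626), ranked 6502, 5039 and 6974, then 3637, 6675 and 8837, then 7071, 6656 and 6169 in the same order of groups (exact permutation p = 0.762). The largest positive difference in this list was at the start of Stat2, a transcription factor of type I interferon signalling, at 2973 (exact permutation p = 0.0595), and the largest negative one lay 34724 bp from Socs3, a feedback inhibitor, at -2445 (exact permutation p = 0.0833).

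Interferon-stimulated genes held 25 regions at 19 of 38 matched genes, with 18 positive and 7 negative differences, a median of 269 and 0 at the smallest p. Over all regions assigned to coding genes the median was 73.2, with 0.400% higher and 0.562% lower. The 3 largest positive differences were all assigned to Sp110, a nuclear body protein induced by interferon, at 5445, 10666 and 21012 bp from its start. The nearest (chr1 from 85591040) ranked 8640 in B16_untreated replicate 1 with none kept in the others, 7213 and 7297 in B16_IFNg replicates 1 and 2, and 2895, 2627 and 3874 in Res499 (rank difference 3503, exact permutation p = 0.0833). The 10666 bp region had no untreated peak among those kept, and 5 of the 6 other libraries ranked between 4075 and 7353 (exact permutation p = 0.0714). At the other end stood the start of Ifit2, which encodes an antiviral RNA-binding protein, at -2390 (exact permutation p = 0.0714). A peak at the start was found at 3 to 5 of the 38 genes in untreated lists of 9214 peaks and at 1 to 8 in the others. In the full lists it was found at 7 to 18 and at 3 to 19, and 11 of the 38 genes had none in any library.

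**Figure D2:**
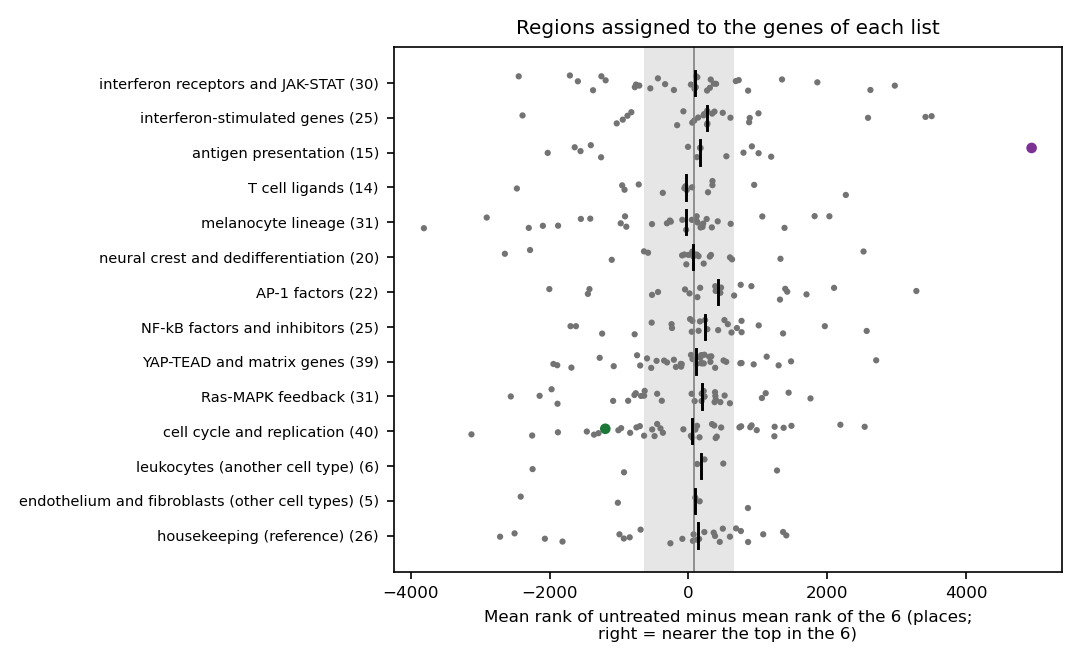
Each small point is 1 region assigned to a gene of the list named on the y axis (number of regions in brackets), placed by its rank difference in places on the x axis, with positive values nearer the top in the 6 libraries. Black ticks are list medians, the grey line and band are the median and the middle quartiles over all coding genes, and the 2 large points are the called regions of Tap1 (purple, 4944) and E2f1 (green, -1198).

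Among factors downstream of other signals, 0 regions were called, where over all regions 0.409% were called higher and 0.658% lower. In lists of this size, counts of 0 are near that background. AP-1 factors had the highest list median, 426 over 22 regions (16 positive, 6 negative, 0 called), and included Fos, whose start had a difference of 3284 (exact permutation p = 0.0952) while a site 1161 bp away had -2004 (exact permutation p = 0.107). NF-kB factors and inhibitors had a median of 240 over 25 regions and YAP-TEAD and matrix genes 116 over 39, with 0 called in both. Ligands of inhibitory and costimulatory T cell receptors had a median of -33.8 over 14 regions and 0 called. Cd274, which encodes PD-L1, had no region in the lists of 9214, and in the full lists a peak at its start appeared in 1 untreated and 1 other library. Reference housekeeping genes had a median of 142 over 26 regions and 0 called.

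Genes of melanocyte identity gave 31 regions with a median of -32.0 and 0 at the smallest p. That count is near the background of 0.409% higher and 0.658% lower over all regions. Mitf, the master regulator of melanocytes, ranked 1150, 1474 and 3045 at its start in B16_untreated (chr6:97806508-97807634) and 2284, 1828 and 2411 in B16_IFNg, with Res499 at 603, 3312 and 604, which overlap (exact permutation p = 0.964). A second region inside Mitf, 9489 bp from a start (chr6:97981333-97982294), ranked 4243, 1647 and 751 in B16_untreated and 7128, 6475 and 3743 in B16_IFNg, with Res499 at 3517, 2739 and 7114. Its difference was -2906, with an exact permutation p of 0.0714 and an adjusted p of 0.961 in a limma fit over the regions with a peak in all 9 lists. The largest difference of this list was at Pax3, a neural crest factor upstream of Mitf, 6967 bp from its start, at -3811 (exact permutation p = 0.0476 before adjustment), while the start of Pax3 itself had 2031 (exact permutation p = 0.143).

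Of the pigment enzymes, Tyrp1 stood near the end of the lists and Dct higher up. The start of Tyrp1 (chr4:80834091-80834718) ranked 8789, 9032 and 8272 in B16_untreated and 6638 in B16_IFNg replicate 2, with no peak kept in the other 5 libraries, and its difference was -87.8 (exact permutation p = 0.940). Dct (chr14:118052000-118052915) ranked 4113 and 2526 in 2 untreated libraries and from 3399 to 9194 in 4 of the other 6 (rank difference -2300, exact permutation p = 0.298). A region 1582 bp from Sox10, the neural crest factor above Mitf, ranked 7997 and 6191 in untreated replicates 2 and 3 and was in none of the 6 lists of 9214 (rank difference -1414, exact permutation p = 0.0833).

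The cell cycle list held the other called gene. The region at the start of E2f1, which drives genes of DNA synthesis (chr2:154569228-154570429), ranked 3043, 2022 and 2562 in B16_untreated and 4325, 4195 and 3571 in B16_IFNg, with Res499 at 3716, 3576 and 3056. The nearest of the 6, Res499 replicate 3 at 3056, lay just below the untreated replicate at 3043. The difference of -1198 (exact permutation p = 0.0119) turned to 428 when peaks were ranked by fold enrichment (exact permutation p = 0.643), and with 50% cover it was -2137 (exact permutation p = 0.131). It was -937 without B16_untreated replicate 2 (exact permutation p = 0.0714). The other 39 regions of this list were not called, against 0.409% called higher and 0.658% called lower over all regions.

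The 3 largest higher differences lay not at genes but in the first assembled part of chromosome 9, which is known to hold satellite repeats. It held 16 regions between positions 3000012 and 3038207, all with positive differences, 6 of them at the smallest p and none lower. The region chr9:3035052-3037442 ranked 7319 in B16_untreated replicate 1 with none kept in the other untreated lists, 931, 174 and 394 in B16_IFNg, with Res499 at 587, 362 and 140 (rank difference 8152, exact permutation p = 0.0119). At chr9:3018334-3020311 only B16_untreated replicate 2 had a kept peak, at 8139, and the 6 libraries ranked 467 to 6033 (rank difference 6232). With 50% cover the first of these had a difference of 5875.5 (exact permutation p = 0.167) and the second 3626 (exact permutation p = 0.405). At chr9:3002047-3003375 only untreated replicate 1 did, at 8692, and the 6 ranked 756 to 5706 (6044), and by fold enrichment the difference was 3382 (exact permutation p = 0.0595). The stretch also held sites near the very top of every list, such as chr9:3023851-3025577, with ranks of 63, 554 and 113 in B16_untreated and 12 to 18 in the other 6. Leaving the stretch out gave 58 higher and 103 lower regions.

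The limma fit on normal scores of the rank, over the 4481 regions with a peak in all 9 lists, shares the spread between regions. It called 1 region higher (0.0223%) and 0 lower at a Benjamini-Hochberg adjusted p under 0.05. At an unadjusted limma p under 0.05 there were 121 higher (2.7%) and 108 lower (2.41%). Together these were 5.11% of the regions tested, near the share of 0.05 due if the sides did not differ. The called region was chr9:3000012-3000862, at the head of the repeat stretch. Its ranks were 3403, 2649 and 2221 in B16_untreated and 120, 23 and 56 in B16_IFNg, with Res499 at 48, 39 and 107. The normal score differed by 2.33 (SE 0.369, limma adjusted p = 0.0369). The call was lost without any 1 of the 9 libraries (limma adjusted p from 0.0754 to 0.470), with the fragment class as a block (0.156) and with ranking by fold enrichment (0.804). Within the joined side, Res499 and B16_IFNg differed at 0 regions after adjustment in limma and at 265 before it (5.91%).

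The gene starts next in that fit did not pass. Mylip, which encodes a ubiquitin ligase that degrades the LDL receptor (chr13:45389414-45390271), ranked 8418, 9167 and 8302 in B16_untreated and 1800, 2721 and 4964 in B16_IFNg, with Res499 at 2399, 2219 and 6173. All 6 lay above all 3, with a rank difference of 5249.7 (exact permutation p = 0.0119, limma adjusted p = 0.339). Crlf3, which encodes cytokine receptor-like factor 3 (chr11:80080537-80081575), ranked 8035, 7908 and 6385 in B16_untreated and 3871, 3283 and 887 in B16_IFNg, with Res499 at 3043, 1482 and 3695. Here too the sides were apart, by 4733 places (exact permutation p = 0.0119, limma adjusted p = 0.899). Where a peak had to cover 50% of the region, the difference was 1732 at Mylip (exact permutation p = 0.512) and 176 at Crlf3 (exact permutation p = 0.929). A site inside Prkca, the gene of protein kinase C alpha, 192969 bp from its start, went the other way, from 1969, 1358 and 2840 in B16_untreated to 4181, 6111 and 4678 in B16_IFNg, with Res499 at 8175, 6294 and 8970 (rank difference -4346, limma adjusted p = 0.899).

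Other gene sites among the 10 largest higher differences, each at an exact permutation p of 0.0119, were those of Fbxl5, Herc3 and Rad17. An annotated end of Fbxl5, an iron-sensing subunit of a ubiquitin ligase (chr5:43781519-43782777), ranked 8850 in B16_untreated replicate 2 alone, 6719, 4526 and 3804 in B16_IFNg, with Res499 at 1854, 1556 and 857. Every Res499 library thus stood above every B16_IFNg library, and each of those above the untreated ones (rank difference 5874). A site 1640 bp inside Herc3, which encodes a ubiquitin ligase (chr6:58831252-58832060), ranked 6349 and 6798 in 2 untreated libraries and 723 to 5218 in the 6 (4485). The start of Rad17, which loads the checkpoint clamp at damaged DNA (chr13:100650779-100651624), ranked 6794 in 1 untreated library and 3151 to 5906 in the 6 (4085). The authors' fold enrichments of kept peaks overlapped between the sides at each of these sites. At Fbxl5 they were 8.60 in B16_untreated replicate 2 and 6.40 to 8.84 in the 6. At Rad17 they were 6.31 in B16_untreated replicate 1 and 5.61 to 8.03 in the 6. With 50% cover the difference at Fbxl5 was 3816 (exact permutation p = 0.214) and that at Rad17 had an exact permutation p of 0.0833. In lists of 4607 peaks, Fbxl5, Herc3 and Rad17 did not reach the smallest p either, with exact permutation p of 0.0833, 0.131 and 0.214.

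Sites that ranked lower were led by places away from promoters. At chr1:80854173-80854863, 95620 bp from the start of Dock10, B16_untreated ranked 3099, 940 and 4439, while of the 6 libraries B16_IFNg replicate 3 ranked 5307, Res499 replicate 1 ranked 7986 and the other 4 had no kept peak (rank difference -5533, exact permutation p = 0.0119). At chr9:92360630-92361146, 51253 bp from 1700057G04Rik, the untreated ranks were 2592, 5247 and 3530 and none of the 6 had a kept peak (-5425). A site inside Padi2, which encodes a peptidylarginine deiminase, 23359 bp from its start (chr4:140929719-140930533), ranked 1967, 3770 and 5594 in B16_untreated and 8396 in B16_IFNg replicate 1 only (-5302). These 3 sites therefore had almost no peak in the exposed or resistant lists of 9214, though the full lists held 4, 1 and 3 of the 6.

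Among gene starts that ranked lower, Pfkp, which encodes the platelet form of phosphofructokinase (chr13:6648499-6649219), ranked 3040, 5821 and 3733 in B16_untreated. It ranked 8738 and 8273 in B16_IFNg replicates 1 and 3, 7368 in Res499 replicate 1, and was not kept in the other 3 (rank difference -4473, exact permutation p = 0.0119). Hlx, a homeobox factor (chr1:184731909-184733019), ranked 4997, 3241 and 1720, then 7803 in B16_IFNg replicate 3 and 5666 in Res499 replicate 2 only (-5069). Cirbp, which encodes a cold-inducible RNA-binding protein (chr10:80167477-80168454), ranked 3650, 3276 and 3078 in B16_untreated and 5318 to 7950 in 3 of the 6 (-4636). Nedd8, a ubiquitin-like modifier, and Ankrd2, a muscle ankyrin-repeat protein, gave -4542 and -4552, and sites 5489 bp inside Ggcx, a vitamin K-dependent carboxylase, and 20728 bp from Zbtb38, which binds methylated DNA, gave -5013 and -4478. In each of these the 3 untreated ranks lay above all 6 others. Ranked by fold enrichment, the difference at Cirbp was -971.5 (exact permutation p = 0.393). With 50% cover it was -2498 at Hlx and -1368 at Ankrd2 (exact permutation p = 0.333 for both). In lists of 4607 peaks Pfkp, Hlx, Nedd8, Zbtb38 and Padi2 had an exact permutation p of 0.0833.

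**Figure D3:**
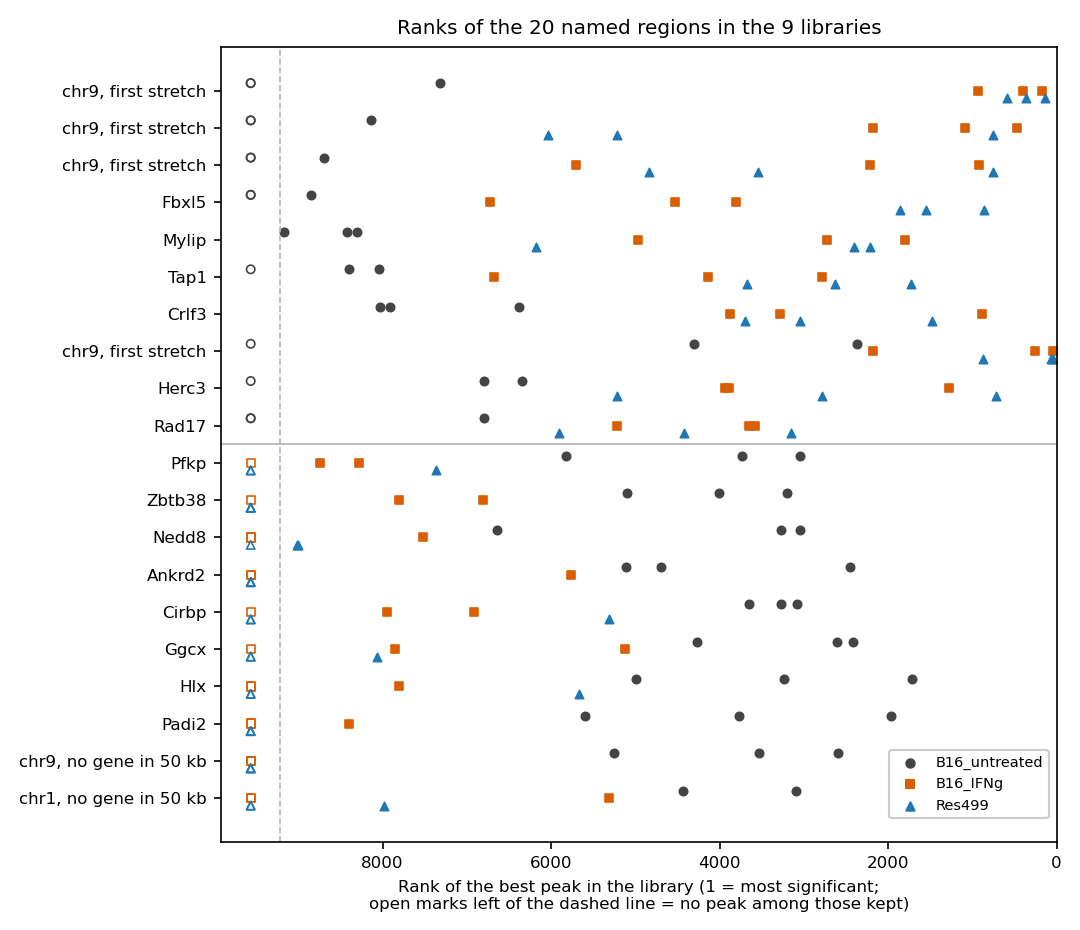
Each line is 1 of the 10 regions with the largest higher differences (top) or lower differences (bottom), with its rank in each library on the reversed x axis, where 1 is the most significant and open marks left of the dashed line stand for no peak among the 9214 kept. Circles are B16_untreated, squares B16_IFNg and triangles Res499, and on each line the circles lie to one side of all squares and triangles.

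The called regions differed in where they lay. Of the 64 higher regions, 49 (76.6%) were within 1 kb of an annotated gene start, and of the 103 lower ones 40 (38.8%), against 58.8% of all regions. For genes assigned by either annotated end, such as Fbxl5 and Psmb1, these counts take an end as a start. The direction was fixed by the choice of regions, so no test is given, and among regions with a peak in all 9 lists the shares were close, at 77.5% and 76.5% against 89.0%. The contrast was also absent where a peak had to cover 50% of the region (59.1% of the higher and 62.6% of the lower) and in lists of 4607 peaks (67.6% and 64.6%). Higher regions were mostly sites that untreated cells also had further down their lists, where the mean rank had a median of 5434, compared with 2280.2 in B16_IFNg libraries and 1646 in those of Res499. In the full lists 62 of the 64 had a peak in all 3 untreated libraries, against 11808 of all 15664 regions. For lower regions the medians were 5422 in B16_untreated, 8773 in B16_IFNg and 9096 in Res499. The gaps in both directions follow from calling regions on these same ranks. In the full lists 7 of the 103 had a peak in none of the 6, against 425 of all 15664 regions. A peak in all of the 6 was found at 26 of the 103, against 6199 of 15664. Res499 was nearer the top than B16_IFNg at 44 of the 64 higher regions and B16_IFNg at 19. At the 103 lower regions B16_IFNg was nearer at 41 and Res499 at 30, and over all regions the numbers were 7300 and 7241.

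Presence within the lists of 9214 gave the strictest pattern. A peak in all 6 and in no untreated library was found at 7 regions (0.0447%), at the starts or annotated ends of Hectd4, Dennd1b, Crim1, Ap4e1, Ift81, Cd2ap and Hrob. The best ranked, inside Hectd4 (chr5:121220078-121220700), stood at 4323, 7815 and 3100 in B16_IFNg, with Res499 at 4115, 5178 and 6710 (exact permutation p = 0.0238). In the full lists each of the 7 had a peak in all 3 untreated libraries, so none was absent there. The opposite pattern was found at 32 regions (0.204%).

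The full deposited lists merged into 32649 regions and gave a one-sided picture, with untreated lists that were longer (15042 to 25362 peaks, against 9214 to 16231). A peak in all 3 untreated and none of the 6 libraries was found at 411 regions (1.26%), and the opposite at 1 (0.00306%). List length and the side cannot be told apart in this count: with the untreated lists shortened to 16231 peaks it was 152 against 2. Most of the 411 sat low in their lists. Only 7 had all 3 untreated ranks within the first 9214, 301 had none there, and their median rank was 12090, 16673 and 14118 in untreated replicates 1, 2 and 3. Their median fold enrichment was 4.66, 5.86 and 5.42, below the medians of 5.78, 6.91 and 6.42 over all peaks of the same libraries.

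**Figure D4:**
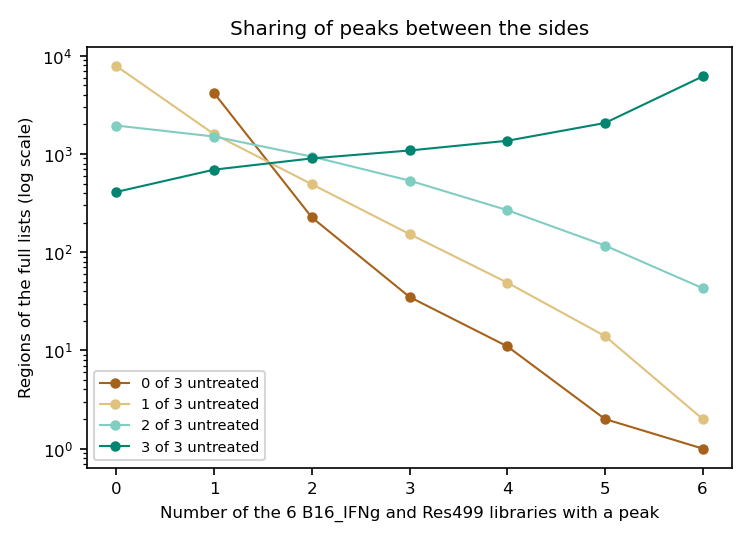
The number of regions of the full lists (log scale, y axis) is plotted against how many of the 6 B16_IFNg and Res499 libraries had a peak there (x axis), with 1 line for each number of untreated libraries with a peak. The dark green line starts at 411 regions with 3 untreated and 0 other libraries and rises to 6166 shared by all 9, and the brown line falls from 4172 regions with a peak in 1 of the 6 to a single region with a peak in all 6.

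The single region seen in all 6 and in no untreated library was the start of Me3 (chr7:89632582-89633200), which encodes a mitochondrial malic enzyme. It ranked 11235, 6545 and 9161 in B16_IFNg, with Res499 at 5417, 9092 and 8708, with fold enrichments of 5.47, 6.69 and 4.98 and of 7.02, 4.18 and 5.08. Its place thus ran from the upper part of the list in Res499 replicate 1 to the last peaks in Res499 replicate 2. With peaks of a −log10 q of at least 3 the region was not counted.

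Regions found only in untreated cells by this rule had 10.9% within 1 kb of a start, 46.0% in gene bodies, 26.3% between genes within 50 kb and 16.8% further out, against 34.9%, 32.9%, 19.5% and 12.7% of all full-list regions. The share at a start depended on the rule: it was 43.9% where a peak had to cover 50% of the region and 23.2% with peaks of a −log10 q of at least 5. Among the best ranked were a site inside Jarid2, the gene of a Polycomb partner protein (chr13:44907702-44908235), with ranks of 5829, 8223 and 4942, and a site 22542 bp from the start of Il1b, the gene of interleukin 1 beta (chr2:129393681-129394022), with 8588, 5246 and 5628. A pair of sites lay 52996 and 118431 bp from Nabp1, a single-stranded DNA binding protein, at chr1:51531395-51531996 (3808, 6887 and 9205) and chr1:51596830-51597431 (6371, 7239 and 5496). Another lay inside Anxa2, the annexin A2 gene (chr9:69467627-69467982), with 7794, 7224 and 8218. Others lay 12613 bp from Tmem241, inside Mbp, and 103403 bp from Bcat1, 6968 bp from Myocos and 87493 bp from Fam3c. List genes among the 411 were Cdk1, Ifi35, Ajuba, Cdkn1a and Dusp6, with 1 region each, of which only that of Ajuba was at a start. That is 2 of 54 full-list regions in the cell cycle list, 1 of 60 among interferon-stimulated genes, 1 of 75 among YAP-TEAD and matrix genes, 1 of 67 in Ras-MAPK feedback and 0 in the other 10 lists, against 1.26% of all regions. The best of their untreated ranks was 6970, at Cdk1 in replicate 3.

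Peak shape moved with the sides. The median width of the 9214 kept peaks was 625, 604 and 742 bp in B16_untreated, 512, 377.5 and 499 bp in B16_IFNg, and 453, 329 and 498 bp in Res499. Every one of the 6 was narrower than every untreated library, by 212 bp on average (two-sided exact permutation test, p = 0.0119, adjusted 0.0357 over 3 measures by Benjamini-Hochberg). The difference was -185 bp in the 4 libraries of the long fragment class and -186 bp in the 5 of the short one. Without B16_untreated replicate 3 it was -170 bp (exact permutation p = 0.0714). It was -222 bp over peaks in regions shared by all 9 libraries (exact permutation p = 0.0119). The −log10 p of the last kept peak moved with it: 11.8, 16.4 and 15.1 in B16_untreated and 10.1, 8.03 and 7.46 in B16_IFNg, with Res499 at 8.75, 4.92 and 8.03. Its part in the width was not tested.

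**Figure D5:**
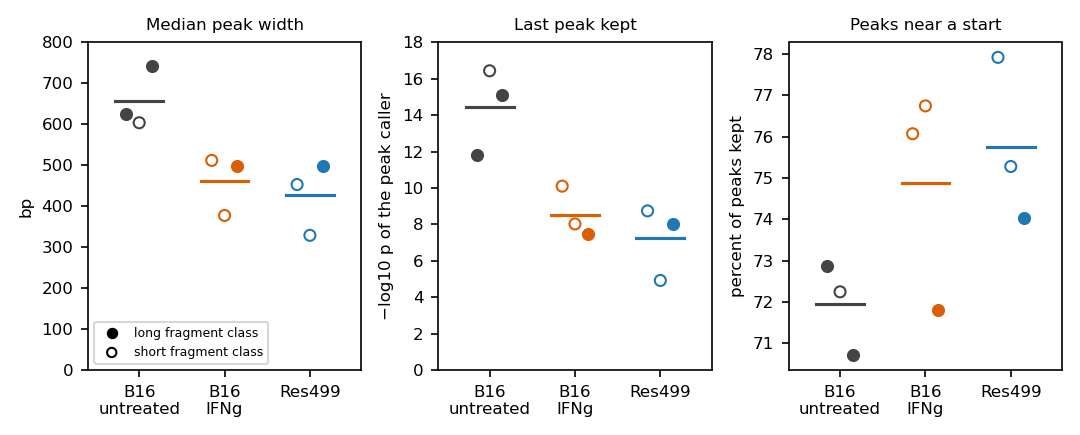
Median width in bp (left), the −log10 p of the last of the 9214 peaks kept (middle) and the percent of kept peaks within 1 kb of a start (right, axis not from 0) are shown for each library, with group means as lines. Filled points are libraries of the long fragment class and open points of the short class, and in the left and middle panels all untreated libraries lie above the other 6.

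Position of the kept peaks differed less than width. Peaks within 1 kb of a start made up 71.9% in B16_untreated and 75.3% in the other 6, a difference of 3.36 percentage points (exact permutation p = 0.0595, adjusted 0.0893). Within the fragment classes it was 1.12 points in the long class, with 2 libraries a side, and 4.25 in the short class, with 1 untreated library. Peaks over 50 kb from any start made up 8.96% and 7.66% (exact permutation p = 0.119). Neither measure passed, and the untreated and other libraries overlapped in both.

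The sorted cells carried promoter peaks of melanoma genes and almost none of other cell types. Of 8 melanoma markers, 6 to 7 had a peak at the start in the untreated full lists and 4 to 6 in the other 6. Of 14 leukocyte markers, 0 to 2 did in the untreated and 0 to 1 in the others, with Ptprc, Lcp2 and Cd3e at 0 in all 9 libraries. The 4 endothelial markers had none, and the 4 fibroblast markers 0 to 1 in untreated and 0 in the others. Sox10 had a start peak in 1 untreated library and none of the 6.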

How the data were processed

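Each library came as 1 deposited list of peaks in 10 columns. Per the submitters' processing notes, CASAVA, cutadapt 1.9, Bowtie2 2.2.4 and MACS2 were used on build GRCm38 (mm10). Which MACS2 release and options were used, and whether read ends were moved to the transposase cut, is not given in the sources used here. The deposited score, the fold enrichment (a ratio over local background), the −log10 p and −log10 q and the summit distance are the authors' values per peak, called in each library separately. They were used only to rank, filter and describe peaks within a list. The lists hold no read counts, and relative depth and fragment class were recovered from fold, −log10 p and peak widths, with whole pileups for at least 99.98% of peaks within a tolerance of 0.01. Libraries whose shortest peak was at least 150 bp form the long fragment class. It was inferred from the peak lists and not from a label, and was used as a block for a possible technical difference. Replicate 3 of B16_IFNg is that group's 1 long-class library and its 1 library of 3 weeks, so class and weeks cannot be told apart there.

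Mean ranks were tested by exact permutation, two-sided, over the 84 choices of 3 of 9 libraries, and by limma 3.58.1 in R 4.3.3 on normal scores, with Benjamini-Hochberg adjustment. Other steps used Python 3.11.15, numpy 2.4.6, pandas 2.3.3 and scipy 1.17.1. The scripts were tested on simulated ranks. Replicate numbers were not used to pair libraries in the main tests. Correlations of same-numbered libraries were weak (-0.0288 to 0.0925), which does not exclude pairing. Regions were assigned to the nearest coding gene within 50 kb, by its start for 17492 genes and by either annotated end for the other 4395, from RefSeq GRCm38.p6. Shares and counts at or near a start include both kinds of point. Shares of peaks near these points were 70.7% to 77.9%, and 5.27% to 6.41% after moving peaks by 50000 bp. Exons and UTRs were not used here. Peaks on chromosome M (2 to 12 per library) were left out.

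The comparison, the 14 gene lists and the markers were chosen with earlier results of these data known. Of 313 distinct list genes, 3 had no match (Mx1, Mx2 and Cxcl11). Named are the 10 regions with the largest difference in each direction at the smallest p, those passing limma, the 10 untreated-only regions with the best ranks, all of the opposite pattern, list genes with a called region, and 13 genes always, of which 1 is not reported here. Lists named beside these in the text are given by counts and medians, and neighbours named from them were chosen after their values were seen. Alternatives changed the ranking column, list length, merging, overlap, libraries, blocks, scale and q threshold. Longer lists without Res499 replicate 2, leaving out the start of chromosome 9, widths in shared regions and the rule of no overlap were added after seeing the data.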

Additional observations from a re-analysis of the deposited data

Results flagged for a closer look

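In 6 of 35 values checked, 1 of the 6 exposed or resistant libraries stood apart from the other 5 by Dixon's criterion. Each time it was a B16_IFNg library nearer the top at a site where at least 3 of the 6 had no kept peak (rank 9215). The criterion's rate of about 1 in 20 groups is for values without such ties and does not apply at these sites. Where the other 5 all had rank 9215, as at Padi2, Ankrd2 and Tyrp1, it was met by construction. B16_IFNg replicate 3 ranked 5307 at chr1:80854173-80854863, with the others from 7986 to 9215. It also ranked 5120 inside Ggcx, with the others from 7857 to 9215. B16_IFNg replicate 1 ranked 8396 inside Padi2 and 5760 at Ankrd2, with the other 5 at 9215 in both. B16_IFNg replicate 2 ranked 7518 at Nedd8, with the others from 8998 to 9215, and 6638 at the start of Tyrp1, with the other 5 at 9215.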

How the results depend on the processing

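Counts of regions higher and lower in the 6 libraries (64 and 103) moved by over 1.5 times under several settings. They were 34 and 48 with 4607 peaks per library, 22 and 297 where a peak covered 50% of a region, 124 and 196 with the fragment class as a block, 40 and 17 over regions in all 9 lists, and 101 and 170 where ranks did not overlap. Higher calls were 30 on the log2 rank and 104 without Res499 replicate 2 in longer lists. Leaving out 1 library gave 80 to 195 higher and 129 to 424 lower, and the smallest p then rises to 0.0178571 or 0.0357143, so the rule is looser. The replicate number as a block gave 164 and 240 at a smallest p of 0.037, and 0 regions in limma (adjusted p = 0.0889). Same-numbered libraries correlated by -0.0288 to 0.0925 and other pairs by -0.0912 to 0.0638. With 3 libraries per group, such weak correlations cannot exclude pairing.

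The 1 limma call became 0 under ranking by fold enrichment, the fragment class block and each library left out (range 0 to 0). It was also 0 with 50% cover and with the chromosome 9 stretch left out, where that region was not in the fit. Untreated-only regions (411) numbered 697 with 50% cover, 32 in equal-length lists, 152 with shortened untreated lists, and 433 to 1832 with 1 library left out (1832 without B16_untreated replicate 1). The opposite count (1) was 0 at a −log10 q of at least 3 or 5 and with 50% cover, 7 in equal lists, 2 with shortened lists, and 1 to 2 with 1 library left out.

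The share near a start passed with ranking by fold enrichment (4.78 points, exact permutation p = 0.0357), without B16_IFNg replicate 3 (4.06, exact p = 0.0179, with 2.74 to 4.06 over single libraries left out) and with the replicate block (3.36, exact p = 0.037). The share over 50 kb did so with fold (-2.47, exact p = 0.0476) and the replicate block (-1.30, exact p = 0.037). The width difference was -239 to -170 bp with 1 library left out, and -170 bp without B16_untreated replicate 3 (exact p = 0.0714). Of 374 repeats of the 21 named regions, 313 kept direction and reached the smallest p of their own setting. Another 60 kept direction only, and 1 reversed, E2f1 by fold (428). The cause of that reversal was not tested. The smallest exact permutation p was 0.0119 in the main setting and up to 0.037 in others, so the rule was looser there. Of all 167 called regions, 167 stayed called with the replicate block, 109 by fold, 72 with 50% cover and 56 in shorter lists. The count of 313 mixes such settings and does not measure stability. Read depth is known only relative to the effective genome.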

Other observations

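The lower regions also held sites of Pgd, Pdha1, Pfkfb3 and Gbe1, which were picked after their values were seen, from no list and with no test. The start of Pgd, an enzyme of the pentose phosphate pathway (chr4:149166337-149167259), ranked 4030, 3714 and 2623 in B16_untreated and 5242, 6759 and 6657 in B16_IFNg, with Res499 at 4251, 7355 and 6435. The start of Pdha1, a subunit of pyruvate dehydrogenase (chrX:160137835-160138731), ranked 6676, 5250 and 6188 in B16_untreated and 8067 and 9067 in B16_IFNg replicates 1 and 2, with no kept peak in the other 4. A site 18053 bp from Pfkfb3, which sets the pace of glycolysis (chr2:11535352-11535876), ranked 3385, 4307 and 5779 in B16_untreated and 7476 to 8705 in 4 of the 6. Gbe1, the glycogen branching enzyme, had a called region in each direction: its start (chr16:70313649-70314776) ranked 388 to 545 in B16_untreated and 51 to 311 in the 6, and a site 37783 bp away (chr16:70351732-70352206) ranked 4799 to 6987 in B16_untreated and 7490 to 8434 in 3 of the 6.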
